A study of Homo sapiens with 3 samples.

Results

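The large heterochromatin blocks around the centromeres of chromosomes 1, 9 and 16 held 299 of the 4889 KCNQ1OT1 ChIRP-seq peaks, which was 6.31% of the 4741 peaks on the primary chromosomes. A peak was taken as a member when its midpoint lay, in GRCh38, between 121.5 and 143.3 Mb on chromosome 1, between 43.1 and 60.9 Mb on chromosome 9 or between 35.0 and 46.5 Mb on chromosome 16. Chromosome 1 gave 174 members, chromosome 9 gave 73 and chromosome 16 gave 52. The rule reads the position of a peak and none of its values.

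The chromatin came from HEK293T, an established human embryonic kidney line, crosslinked for 30 min in 3% formaldehyde and sheared mostly to under 500 bp. ChIRP (chromatin isolation by RNA purification) captures an RNA with biotinylated probes and sequences the DNA crosslinked to it. The groups were a pulldown with the odd probes, a pulldown with the even probes and an input that received no probe, with 1 library in each and no other treatment in the labels. The deposited list is a single merged one, and each of its 4889 peak names carries the even pulldown's name, so the groups could not be compared and no test between them was possible.

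KCNQ1OT1 is a long noncoding RNA of the imprinted KCNQ1 domain, where it is expressed from the paternal chromosome and acts in silencing neighbouring genes in cis. The blocks on the long-arm side of the centromeres of chromosomes 1, 9 and 16 are the largest constitutive heterochromatin of the human autosomes. They consist mainly of classical satellites, short tandem repeats that carry the repressive histone mark H3K9me3 and heavy DNA methylation, next to the alpha satellite on which the centromere forms. Nearly identical repeat copies make the placement of short reads uncertain, and GRCh38 represents much of the satellite as runs of unknown bases and the centromeres as modelled sequence. Which members lie on satellite DNA was not analysed here, because no genome sequence or repeat annotation of the build was used. For the same reason no sequence of a peak is printed.

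In each block the peaks lay on either side of a single long stretch without any peak. On chromosome 1 this stretch ran from 125183649 to 143184832, which was 18.0 Mb or 82.6% of the block. On chromosome 9 it ran from 45441185 to 60582773 (15.1 Mb, 85.1%), and on chromosome 16 from 38280096 to 46387931 (8.11 Mb, 70.5%). The next longest gap between neighbouring peaks was far shorter, at 217 kb on chromosome 1, 191 kb on chromosome 9 and 866 kb on chromosome 16. The stretches include bases that the assembly may not resolve, so no absence of signal can be read from them.

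**Figure D1:**
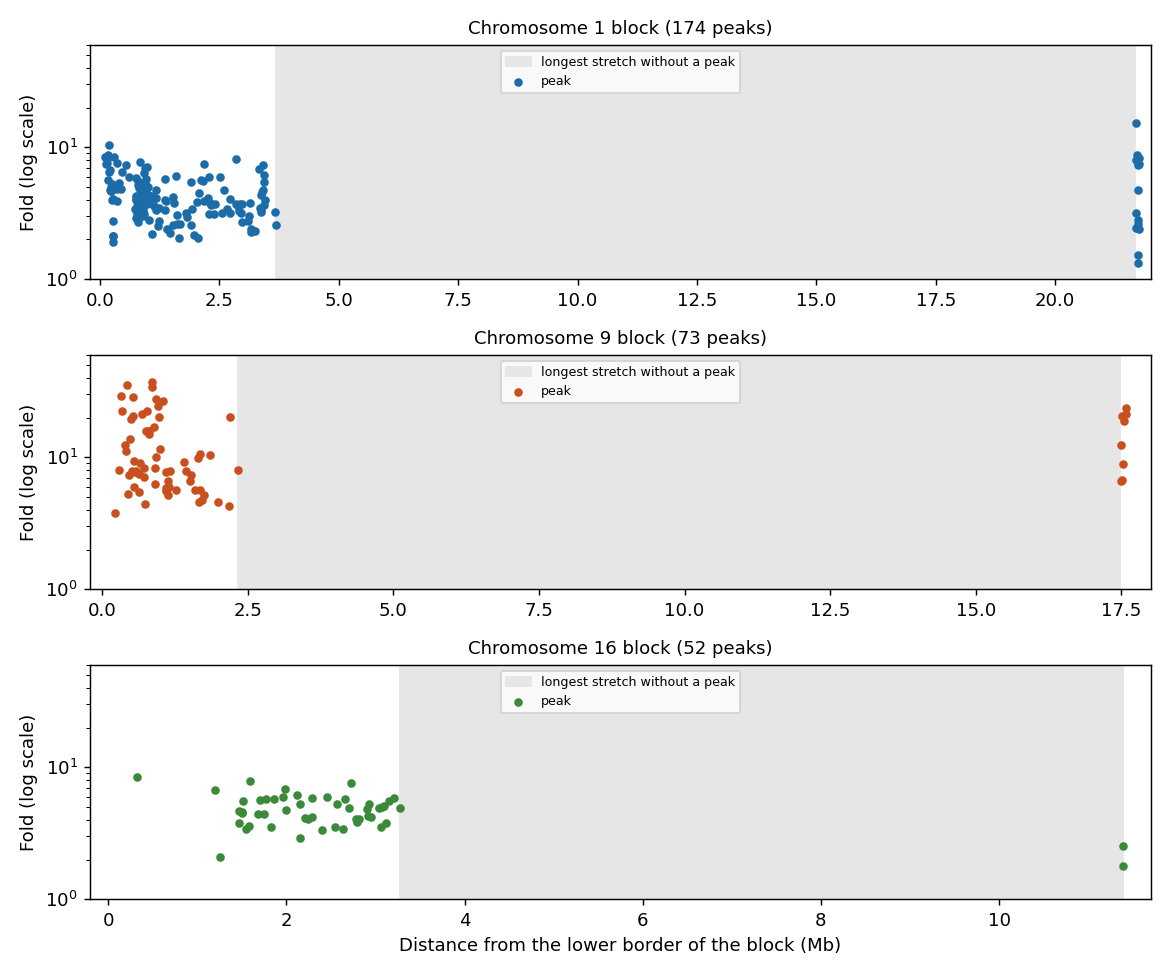
Fold enrichment of each peak (log scale) against its distance in Mb from the lower border of the block, with 1 panel per chromosome and the longest stretch without a peak in grey. The peaks form a group at the lower border and a small group of 14, 8 and 2 peaks at the upper border of the blocks of chromosomes 1, 9 and 16.

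The stretch divided the members into a centromere side, which holds the lower coordinates, and a long-arm edge, a division made after the positions were seen. On chromosome 1 the centromere side had 160 peaks from 121610526 to 125183648 and the long-arm edge had 14 from 143184833 to 143266104. On chromosome 9 there were 65 peaks from 43324683 to 45441184 and 8 from 60582774 to 60683434. On chromosome 16 there were 50 peaks from 35326924 to 38280095 and 2 from 46387932 to 46394975. All 3 blocks thus held most of their peaks on the centromere side, and the long-arm edges were narrow, at 81.3 kb, 101 kb and 7.04 kb in the same order.

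Over all its peaks chromosome 1 had the densest block. It held 7.98 peaks per Mb (exact Poisson 95% interval 6.84 to 9.26), against 4.10 (3.21 to 5.16) on chromosome 9 and 4.52 (3.38 to 5.93) on chromosome 16. The intervals of chromosomes 9 and 16 overlap, and that of chromosome 1 lies above both. These intervals treat peaks as independent, and clustering of the peaks can make them too narrow. With the long stretch left out of the length, the densities were 45.8, 27.5 and 15.3 peaks per Mb, so the order of chromosomes 9 and 16 depends on that length. The place of chromosome 1 depends on its weaker peaks, since with a fold of at least 5 the blocks held 45, 67 and 20 peaks, and in the upper part of the whole list by score 21, 42 and 3. The 5 Mb on each side of a block held 15, 20 and 22 peaks in all on chromosomes 1, 9 and 16, or 1.5, 2.0 and 2.2 peaks per Mb. Over their whole lengths the blocks were therefore 5.32, 2.05 and 2.06 times as dense as these flanks, and 2.90, 2.34 and 1.39 times as dense as flanks of 2 Mb. These ratios count the long stretch as length, so they understate the density of the parts that held peaks. The densities to set beside 1.5, 2.0 and 2.2 without the stretch are 45.8, 27.5 and 15.3, where chromosomes 9 and 16 are no longer alike. In spite of these differences the members made up similar shares of the peaks of their chromosomes, at 35.6% of 489, 34.6% of 211 and 34.7% of 150.

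In the RefSeq gene table for GRCh38, 298 of the 299 members lay in gene-free intervals of at least 2 Mb. The ranges of chromosomes 1 and 9 nearly coincide with 1 such interval each. On chromosome 16 the interval from 36102206 to 46469336 filled 10.4 Mb of the 11.5 Mb range and held 51 of the 52 members. All 3 counts thus largely follow from the rule. The share of all peaks that overlap a gene was not computed. The other gene-free intervals held 1211 peaks, 25.5% of those on the primary chromosomes. No protein-coding gene overlapped any of the 3 blocks. Genes of other kinds that overlapped them numbered 3, 4 and 73 on chromosomes 1, 9 and 16. Those of chromosome 16 all lay outside its gene-free interval. The member outside the gene-free intervals was the first peak of chromosome 16, 35326924 to 35327822. It overlapped the ends of the uncharacterised lncRNA genes LOC105371199 (35319031 to 35327711) and LOC105371198 (35327467 to 35333893). The genes nearest to the members were also noncoding. On chromosome 1 the first peak lay 38.6 kb above EMBP1, a transcribed pseudogene, and the last lay 33.4 kb below the lncRNA gene LOC101929814. On chromosome 9 the first peak lay 185 kb above the transcribed pseudogene LOC102724904, and the last lay 149 kb below the pseudogene CNTNAP3P4. On chromosome 16 the lncRNA gene LOC124903768 ended 13.7 kb below the first peak, and the transcribed pseudogene ANKRD26P1 began 74.4 kb above the last.

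Peaks of chromosome 1 were the most clustered and those of chromosome 16 the least. Another peak lay within 10 kb of 127 of the 174 peaks of chromosome 1 (73.0%, Wilson 95% interval 66.0 to 79.0), 41 of the 73 of chromosome 9 (56.2%, 44.8 to 67.0) and 15 of the 52 of chromosome 16 (28.8%, 18.3 to 42.3). The intervals of chromosomes 1 and 9 overlap slightly, and that of chromosome 16 lies below both. Having a near neighbour is mutual, so the peaks are not independent here and the intervals are likely too narrow. For scale, the share was 47.2% among the 1211 peaks of the other gene-free intervals and 6.84% among the 3231 peaks elsewhere on the primary chromosomes. The order of the 3 blocks in clustering was that of their density without the long stretch.

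**Figure D2:**
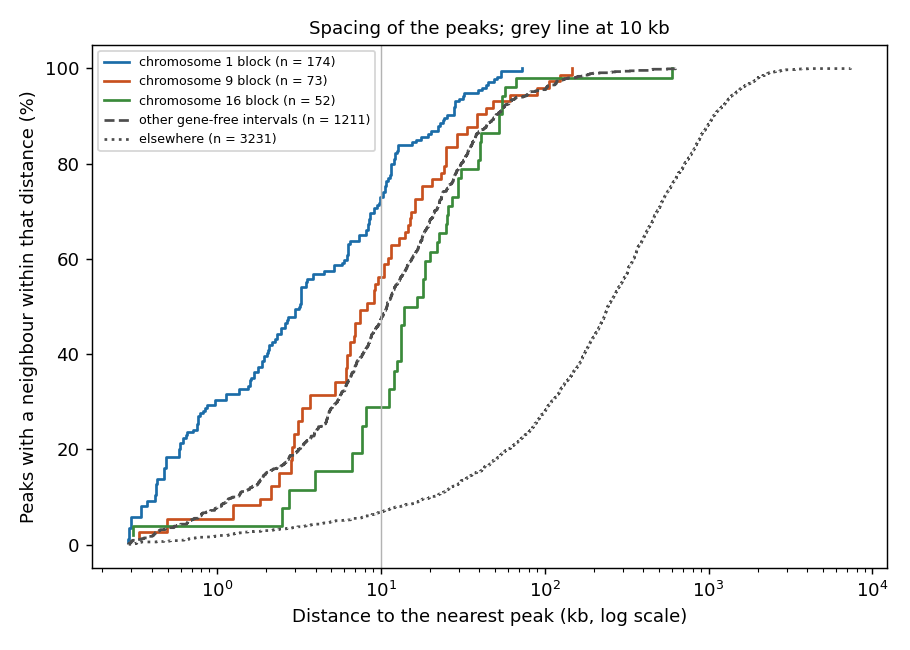
Share of peaks in percent whose nearest peak lies within a given distance in kb (log scale), for the 3 blocks, the other gene-free intervals and elsewhere. At 10 kb, marked by the grey line, the curves stand at 73.0%, 56.2% and 28.8% for chromosomes 1, 9 and 16.

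Joining peaks with under 10 kb between them gave 73 clusters on chromosome 1, 46 on chromosome 9 and 44 on chromosome 16, of which 47, 32 and 37 were single peaks. Clusters of at least 5 peaks numbered 6 on chromosome 1, where they held 76 peaks, 2 on chromosome 9, where they held 11, and 0 on chromosome 16. The largest of the 3 blocks was on chromosome 1, with 31 peaks from 122239025 to 122380136. Peaks covered 53.8% of its 141 kb, its folds ran from 2.71 to 7.69 with a median of 4.11, and the highest summit coverage in it was 61 fragments. A second group of 15 peaks followed 11.3 kb further on, from 122391426 to 122468750, and the third was the long-arm edge with its 14 peaks. The largest cluster of chromosome 9 had 6 peaks from 60582774 to 60641827, also at the long-arm edge, and peaks covered 68.1% of it. Its next clusters had 5 peaks from 43623510 to 43665946 and 4 from 44001568 to 44030013. On chromosome 16 the largest had 3 peaks, from 36503530 to 36514081, and pairs of peaks lay at 36463886 to 36469395 and 36987051 to 36998050.

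Within the centromere sides the peaks were not spread evenly on any of the 3 chromosomes. In bins of 0.5 Mb, chromosome 1 held 27 peaks from 121.5 Mb, 53 from 122.0 Mb and then 18, 14, 14, 14 and 18 in the bins up to 125.0 Mb. The median fold in these bins was 5.27 in the first, 4.29 in the second and between 3.03 and 3.88 in the other 5. Chromosome 9 held 11 peaks from 43.1 Mb, 29 from 43.6 Mb, 11 from 44.1 Mb, 11 from 44.6 Mb and 3 from 45.1 Mb, with median folds of 12.4, 11.6, 6.63, 5.66 and 7.97. On both chromosomes the second bin held the most peaks, and the first 2 bins had the highest median folds of the centromere side. Chromosome 16 differed in having 1 peak in its first bin, no peak in the next bin and a gap of 866 kb after the first peak. It held 4 from 36.0 Mb and then 15, 9, 13 and 8 in the bins from 36.5 Mb on, with median folds from 4.21 to 4.95 in these 5 bins.

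The name of each peak ends in a number, and the numbers that are missing from the merged list differ between the blocks. MACS2, the peak caller named by the submitters, numbers its peaks along the chromosome, so the numbers passed between the first and the last member would count the peaks found in the even pulldown there. On chromosome 1, 174 of 311 numbers were present (55.9%, Wilson 95% interval 50.4 to 61.4), on chromosome 9, 73 of 314 (23.2%, 18.9 to 28.2), and on chromosome 16, 52 of 201 (25.9%, 20.3 to 32.3). Chromosomes 1 and 9 thus passed nearly equal numbers, 311 and 314, and kept unequal ones. At the long-arm edges the present numbers were 14 of 14, 8 of 15 and 2 of 2. The sources used here do not give the rule by which the authors merged the lists. Its part in the densities was not tested.

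The fold enrichment, deposited by the authors as a linear ratio of pulldown to background for the summit of each peak, separated chromosome 9 from the other 2 blocks. Its median was 8.89 on chromosome 9 (exact 95% interval of the median 7.73 to 11.6; range 3.76 to 37.0). It was 4.01 on chromosome 1 (3.78 to 4.27, range 1.33 to 15.3) and 4.69 on chromosome 16 (4.20 to 5.25, range 1.80 to 8.51). The intervals of chromosomes 1 and 16 overlap, whereas that of chromosome 9 lies above both. It was 6.36 (6.05 to 6.65) in the other gene-free intervals and 11.5 (10.8 to 12.3) elsewhere. Chromosome 9 therefore lay above the other gene-free intervals, with an interval that overlaps that of elsewhere, and chromosomes 1 and 16 lay below both.

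A fold of 20 or more was found for 0 of the 174 peaks of chromosome 1 (Wilson upper limit 2.16%), 17 of the 73 of chromosome 9 (23.3%, 15.1 to 34.2) and 0 of the 52 of chromosome 16 (upper limit 6.88%). Over all peaks on the primary chromosomes this share was 25.9%, in the other gene-free intervals it was 4.62% and elsewhere it was 35.8%. The share on chromosome 9 was thus close to that of the whole list. At the other end, a fold under 5 was found for 129 peaks of chromosome 1 (74.1%), 6 of chromosome 9 (8.22%) and 32 of chromosome 16 (61.5%), against 20.7% over the primary chromosomes, 34.9% in the other gene-free intervals and 12.1% elsewhere. The list holds only peaks above a lower limit of −log10 p. A peak of low background needs a higher fold to reach that limit than a peak of high background. The shares under 5 and the median folds thus depend in part on the background, and how far was not tested. Among the 500 peaks with the highest fold, which were 10.5% of those on the primary chromosomes, 0 were members. Among the 500 with the highest score, which is 10 times the −log10 p, 7 were from chromosome 1, 20 from chromosome 9 and 1 from chromosome 16. These 28 were 9.36% of the members, near the 10.4% of all peaks on the primary chromosomes.

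Most peaks of high fold on chromosome 9 lay in the first 1 Mb of its block. Of the 17, 12 had starts from 43422404 to 44083160, 1 began at 44145165, 1 at 45290894 and 3 were at the long-arm edge. The highest fold was 37.0, at 43951976 to 43954194, with a −log10 p of 520. Next came 35.3 at 43520011 to 43522207 and 34.1 at 43957038 to 43959258. The first and the last of these lie 2.84 kb apart. The highest scores of the block belonged to the peak with fold 37.0, to 44028474 to 44030013 (fold 27.7, −log10 p 493) and to 43422404 to 43428389 (fold 29.4, −log10 p 481), at ranks 57, 67 and 72 of the list. The first peak of the block, 43324683 to 43326329, had its lowest fold, 3.76.

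**Figure D3:**
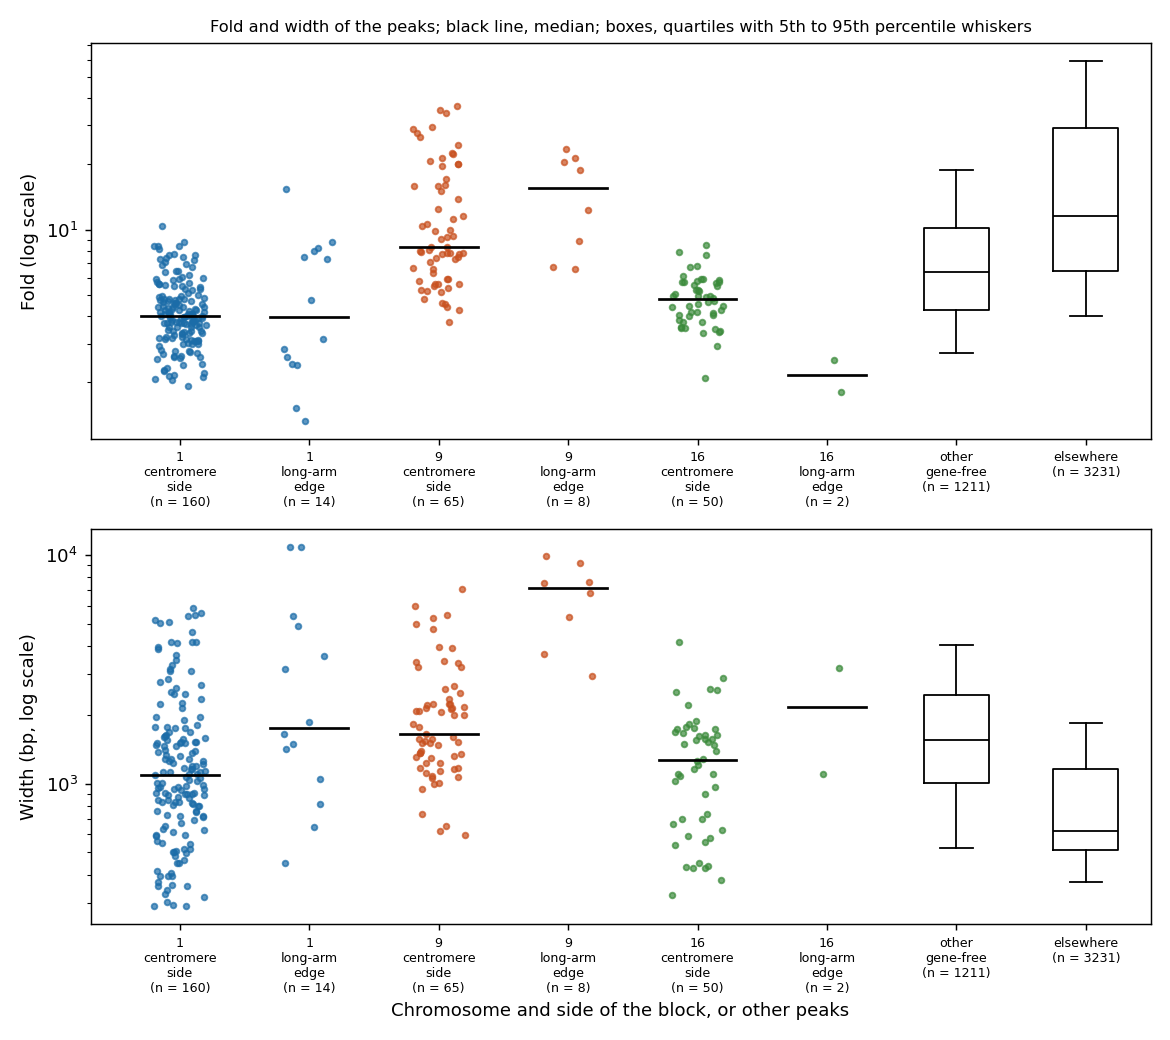
Fold (upper panel) and width in bp (lower panel), both on log scales, of the peaks on the centromere side and at the long-arm edge of each block, with 1 point per peak and a black line at the median; boxes show the other gene-free intervals and elsewhere. Chromosome 9 has the highest folds of the 3 blocks, and 6 of the 8 peaks at its long-arm edge are at least 5 kb wide.

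Over all peaks the median width was highest on chromosome 9. It was 2004 bp there (exact 95% interval 1525 to 2219; range 599 to 9930), 1125 bp on chromosome 1 (971 to 1284; range 291 to 10833) and 1268 bp on chromosome 16 (1031 to 1572; range 325 to 4155). The intervals of chromosomes 1 and 16 overlap, and those of chromosomes 9 and 16 overlap slightly. In the upper part of the whole list by score the median was 2866 bp on chromosome 1 and 2808.5 bp on chromosome 9, so the order of the pair turned. Other gene-free intervals had a median of 1550 bp (1488 to 1618) and peaks elsewhere one of 620 bp (611 to 629). Of the 53 peaks of at least 5 kb on the primary chromosomes, which were 1.12% of all there, 20 were members, with 10 on chromosome 1, 10 on chromosome 9 and 0 on chromosome 16. Of the same 53, 28 were in the other gene-free intervals and 5 elsewhere. These were 2.31% and 0.155% of the peaks there, against 6.69% of the members. Together the members covered 551 kb, of which chromosome 1 had 288 kb, chromosome 9 had 193 kb and chromosome 16 had 70.4 kb.

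The widest peaks of chromosomes 1 and 9 lay at the long-arm edge. On chromosome 1 these were 143212184 to 143223016, at 10833 bp, and 143246143 to 143256918, at 10776 bp, which ranked 4 and 5 of the list by width. On chromosome 9 the widest was 60582774 to 60592703, at 9930 bp, with rank 8. Median widths at the 2 long-arm edges were 1755 bp on chromosome 1 and 7155.5 bp on chromosome 9, against 1093.5 and 1647 bp on their centromere sides. The widest peak of chromosome 16 was on its centromere side, 37719971 to 37724125 with 4155 bp. The narrowest were 124949715 to 124950005 on chromosome 1 (291 bp), 44848401 to 44848999 on chromosome 9 (599 bp) and 36249170 to 36249494 on chromosome 16 (325 bp).

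A fold can be low because few fragments were pulled down or because the background was high, and the deposited values allow both to be computed. By MACS2's formulas the fold is (coverage + 1) / (background + 1), and the p-value is the Poisson probability of more fragments than the coverage. Solving both together gave a whole number of pulldown fragments at the summit within 0.005 in −log10 p for 4889 of 4889 peaks. The next whole number missed by at least 0.0167. The background took a floor of 1.63 fragments in 761 peaks and steps of 0.590 in 1712. In the other 2416 it took the steps that a window of 1 kb or 10 kb gives with fragments of 287 bp. A coverage and a background stated here are thus implied by the deposited fold and p and are computed values. Because its steps are of 0.590, a background is a scaled value and not a count of control fragments. The highest background of the list, 1366, was 2317 such steps. Coverage and background describe the library behind the peak calls. The sources used here do not name the library that served as background.

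Chromosome 16 had the lowest medians of both quantities, and chromosomes 1 and 9 were not separated in either. Median coverage at the summit was 42.5 fragments on chromosome 1 (exact 95% interval 37 to 46), 75 on chromosome 9 (46 to 160) and 28 on chromosome 16 (26 to 30), against 54 in the other gene-free intervals and 54 elsewhere. Median background was 9.20 fragments on chromosome 1 (8.26 to 10.0), 7.67 on chromosome 9 (5.90 to 10.2) and 5.13 on chromosome 16 (4.23 to 5.90), against 7.67 in the other gene-free intervals and 2.37 elsewhere. The intervals of chromosome 9 overlap or touch those of chromosome 1 for both quantities, and that of chromosome 16 for the background. Chromosomes 1 and 16 thus had similar folds from different levels, since both coverage and background were lower on chromosome 16. The background sat at its floor in 4 of the 299 members, all on chromosome 1, in 0.578% of the peaks in other gene-free intervals and in 22.0% of those elsewhere.

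Chromosomes 1 and 16 also held members with a background of at least 50 fragments, whereas chromosome 9 had 0. They were 15 peaks of chromosome 1 and 3 of chromosome 16, or 6.02% of the members, against 1.48% of all peaks on the primary chromosomes and 2.73% in the other gene-free intervals. Of the 10 highest backgrounds in the whole list, 5 were on chromosome 1 and 2 on chromosome 16. Of the 21 peaks on the primary chromosomes with a coverage of at least 1000, which were 0.443% of all there, 10 were members, with 8 on chromosome 1 and 2 on chromosome 16. Of these 10, 9 were at the long-arm edges and 1 was the peak that faces the edge of chromosome 1 across the long stretch.

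**Figure D4:**
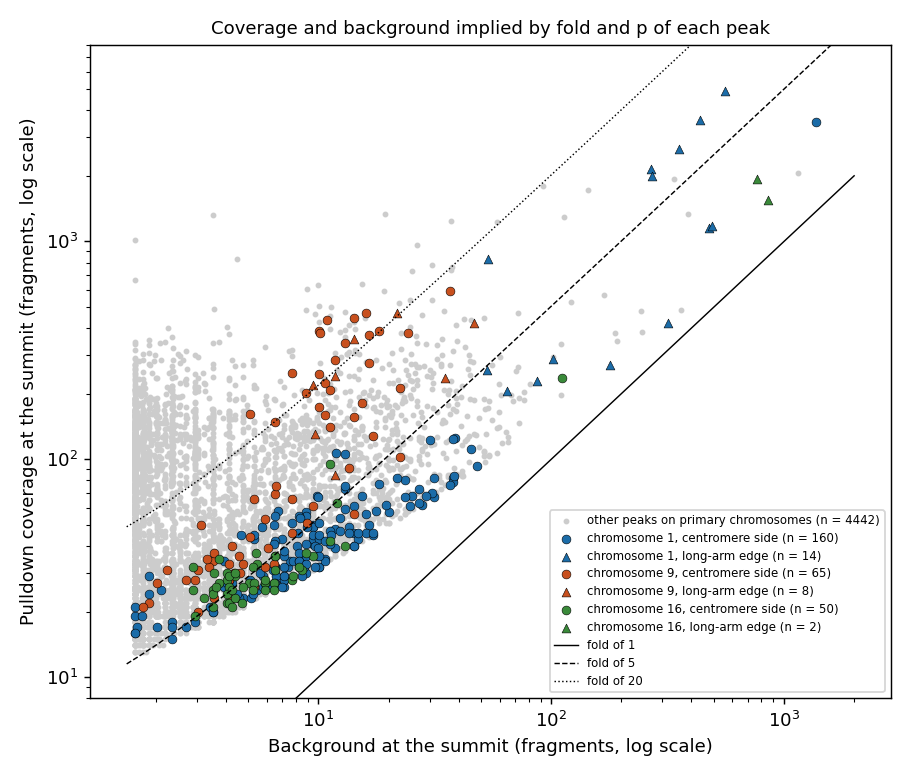
Pulldown coverage against background at the summit, in fragments on log scales, as implied by the fold and p of each peak; circles are the centromere sides, triangles the long-arm edges, grey points the other peaks on primary chromosomes, and lines mark folds of 1, 5 and 20. The background is a scaled value and not a count of control fragments. The long-arm edges of chromosomes 1 and 16 reach coverages of 4878 and 1933 fragments at folds of 8.76 and 2.53. Coverages at the long-arm edge of chromosome 9 stay between 85 and 467 fragments.

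The long-arm edge of chromosome 1 held the highest coverage of the members. Its 14 peaks had coverages from 205 to 4878 fragments with a median of 992.5, and backgrounds from 53.1 to 556 with a median of 270. The peak from 143212184 to 143223016 had the highest coverage of the whole list, 4878 fragments (exact Poisson 95% interval 4742 to 5017), over a background of 556. Its fold was 8.76 and its −log10 p of 2727 ranked 2 in the list. The peak from 143246143 to 143256918 had 3597 fragments over 434 (fold 8.27, rank 4), and that from 143262661 to 143264151 had 2648 over 354 (fold 7.45, rank 10). At a given ratio a Poisson p-value falls with the number of fragments, so a high score here goes with many fragments at a moderate fold.

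Folds within this edge ran from the highest of the block to the lowest of the list. The first of its peaks, 143184833 to 143188002, had the highest fold of the chromosome 1 block, 15.3, with 832 fragments over 53.3. The last, 143264452 to 143266104, had a fold of 2.39 with 1173 over 491. A peak picked after its values were seen, 143233244 to 143233691, had a fold of 1.33 with 422 fragments over 317, the lowest fold of all 4889 peaks. Facing this edge across the 18.0 Mb stretch, the last peak of the centromere side, 125178209 to 125183648, had 3545 fragments over a background of 1366, and was likewise picked after its values were seen. That background was the highest of the list, and the fold was 2.59. Its neighbour 125166964 to 125170130 had 124 fragments over 37.7, so the levels changed steeply within 8.08 kb.

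On the rest of the chromosome 1 block the peaks were modest. The median coverage of the centromere side was 40 fragments and the median background 8.72. Its highest fold was 10.4, at 121689320 to 121691280, where 29 fragments stood over a background of 1.88. The first peak of the block, 121610526 to 121614689, had 107 fragments over 11.8 and a fold of 8.41. The narrowest, at 124949715, had 24 fragments over 5.25.

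Chromosome 16 combined low coverage on its centromere side with a pair of very deep peaks at the long-arm edge. The pair had 1541 fragments over 857 (46387932 to 46391138, fold 1.80) and 1933 over 765 (46393879 to 46394975, fold 2.53). These folds were the lowest and the third lowest of the block, while the −log10 p values, 97.6 and 273, were the highest. Between them in fold came the narrowest peak, 36249170 to 36249494, with 235 over 111 (fold 2.10). The highest folds were 8.51 at the first peak, which overlaps the lncRNA genes (32 fragments over 2.88), 7.87 at 36591292 to 36593177 (95 over 11.2) and 7.62 at the widest peak (35 over 3.72). Unlike on chromosome 1, no peak next to the stretch on the centromere side was deep, since 38277196 to 38280095 had 63 fragments over 12.02.

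On chromosome 9 the high folds came with high coverage over a moderate background. The peak of highest fold had 437 fragments over 10.8, and the 13 others of fold 20 or more on the centromere side had 149 to 467 over backgrounds of 5.08 to 18.3. Its long-arm edge had coverages from 85 to 467 and backgrounds from 9.44 to 46.6. The widest peak there had 236 over 34.8 (fold 6.62), and the last, 60679752 to 60683434, had 220 over 9.44 (fold 21.2). The median fold was 15.6 at this edge and 8.31 on the centromere side, so without the edge chromosome 9 still had the highest median of the 3 blocks.

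Across the peaks of a block, fold and background ran in opposite directions on chromosomes 1 and 16 and not on chromosome 9. Spearman's rho was −0.59 over 174 peaks, −0.74 over 52 and 0.37 over 73, in that order, and −0.58 over the 4442 peaks outside the blocks. Wider peaks had more coverage at the summit in each block, with rho of 0.43 on chromosome 1, 0.79 on chromosome 9 and 0.47 on chromosome 16, against 0.086 outside the blocks. These are descriptions over sites of 1 list that share their libraries, and fold is itself computed from the background. The lower limit of −log10 p also favours a negative rho of fold and background among peaks near it, since a low background needs a higher fold to pass. Median −log10 p was 12.9 on chromosome 1, 43.7 on chromosome 9 and 12.3 on chromosome 16. The contrast between the blocks can therefore not be read as a property of the sites, and the effect of the limit was not tested.

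Summits were more often off-centre in the blocks than elsewhere. The summit lay between 25% and 75% of the width in 46.6% of the peaks of chromosome 1 (Wilson 95% interval 39.3 to 54.0), 54.8% of those of chromosome 9 (43.4 to 65.7) and 55.8% of those of chromosome 16 (42.3 to 68.4). The intervals overlap, so the 3 blocks are not separated. The share was 65.1% in the other gene-free intervals and 74.3% elsewhere. Among peaks of at least 1 kb it was 63.3% on chromosome 1, 55.2% on chromosome 9 and 64.7% on chromosome 16, so the low share of chromosome 1 was not seen among its wider peaks.

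**Figure D5:**
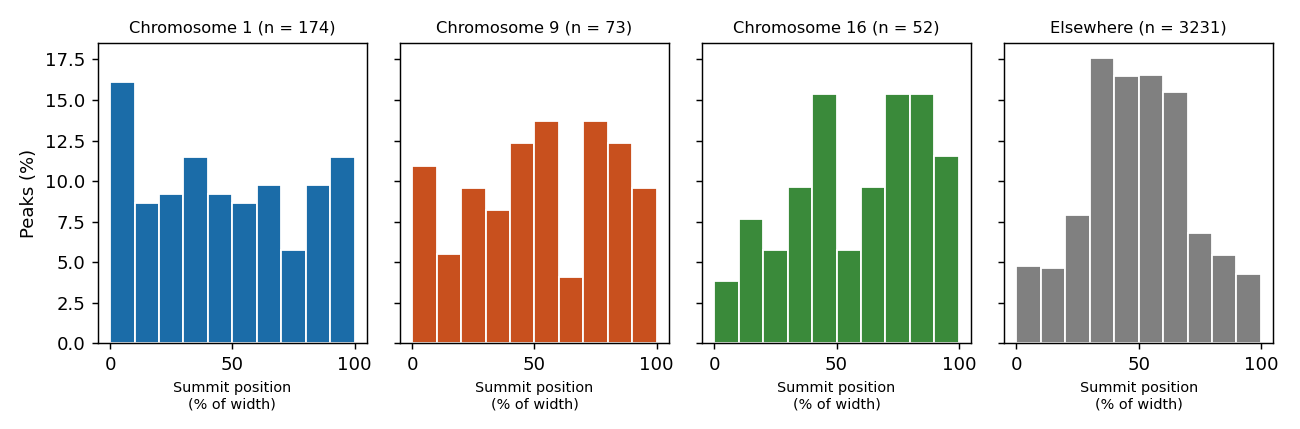
Share of peaks in percent by position of the summit within the peak, in 10 equal bins of the width, for the 3 blocks and for peaks elsewhere. The bin at the lower end holds 16.1% of the summits on chromosome 1 and 4.797% elsewhere, where the 4 bins at the centre hold 15.5% to 17.6% each.

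Summits within 10% of an end of the peak numbered 48 on chromosome 1 (27.6%, Wilson 95% interval 21.5 to 34.7), 15 on chromosome 9 (20.5%) and 8 on chromosome 16 (15.4%), against 18.0% in the other gene-free intervals and 9.07% elsewhere. Of the 48 on chromosome 1, 28 were at the lower end and 20 at the upper, and 4 were at the first base of the peak. Among wide peaks of chromosome 9, the summit recurred at a similar distance from the start. The distance was within 50 bp of 1.9 kb in 9 of its 37 peaks of at least 2 kb, against 3 of 37 on chromosome 1, 0 of 7 on chromosome 16, 6 of 417 in the other gene-free intervals and 7 of 111 elsewhere. This distance was picked after the values were seen, so the counts are a description.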

How the data were processed

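ChIRP-seq of KCNQ1OT1 was represented by 1 peak list that the authors deposited as merged, in the layout of MACS2. Bowtie2, MACS2 and GRCh38 are named per the submitters' processing notes. The sources used here give no version, setting, control or duplicate filter, and no rule for merging odd with even. The authors deposited for each peak a score, which was the whole part of 10 times the −log10 p, a linear fold ratio, a −log10 p and −log10 q, and the distance of the summit from the start in bp. These values belong to the peak and were used only within the list. Read depth is unknown, so the precision of the libraries cannot be stated.

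Members were found by midpoint with Python 3.11.15, pandas 2.3.3, numpy 2.4.6 and scipy 1.17.1, and figures were drawn with matplotlib 3.10.9. Positions are 1-based. The members, the gene-free intervals of at least 2 Mb and the fold limit of 20 were chosen with earlier results of these data known. Shares have Wilson intervals, medians exact binomial intervals and densities exact Poisson intervals, all at 95% and covering counting error only. All of them treat peaks as independent, which clustered peaks are not, so they can be too narrow. Peaks are sites and not replicates, so no p-value was computed. Coverage and background at the summit were solved from fold and −log10 p, and the solver was tested on simulated peaks. The 147 peaks on other contigs, 1 peak on mitochondrial DNA and the q-values were not used in the comparisons. Named are, in each block, the 3 peaks of highest score, the 3 of highest fold, the widest, the narrowest, the first and the last, the 3 clusters with the most peaks, overlapped genes and the genes nearest to the members at each border. All others were picked after their values were seen. Clusters were also joined at 5 kb and 50 kb, borders were moved by 0.5 Mb, and stricter thresholds, other summaries and other flanks were tried.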

Additional observations from a re-analysis of the deposited data

Results flagged for a closer look

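Outside the primary chromosomes the list held 147 peaks on other contigs and 1 on mitochondrial DNA, which entered no comparison. Of the 147, 2 had a summit coverage of at least 1000 fragments, beside 10 members of the 3 blocks and 11 other peaks on primary chromosomes. The highest reached 3640 fragments at a fold of 4.55, and the median over the 147 peaks was 46. They were singled out as signal in data that the comparisons did not use.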

How the results depend on the processing

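Of 75 values recomputed for 24 results, 51 stayed within the interval or within 1.5 times the count of the reported value and 24 did not. In the upper part of the list by score, above a −log10 p of 31.8, the peaks of chromosomes 1, 9 and 16 numbered 21, 42 and 3, with median widths of 2866, 2808.5 and 1886 bp and median folds of 6.38, 15.9 and 2.53. Chromosome 9 then had the most peaks, and the share with a neighbour within 10 kb on chromosome 16 was 66.7% of its 3. With a fold of at least 5, the blocks held 45, 67 and 20 peaks, with a median width of 1604 bp on chromosome 1. Without the longest stretch free of peaks the densities were 45.8, 27.5 and 15.3 per Mb. Joined at 5 kb, the shares with a neighbour were 57.5%, 31.5% and 15.4%, and at 50 kb they were 97.7%, 93.2% and 86.5%. In peaks of at least 1 kb, 63.3% of the summits of chromosome 1 were central. With a flank of 2 Mb, chromosome 1 had 2.75 peaks per Mb there. Chromosome 9 had the highest fold of the 3 blocks under each of the 4 settings tried for it, which also left out the largest cluster, left out the long-arm edge or took the geometric mean. The cause of these shifts was not tested. Densities over assembled bases were planned and not run, since no genome sequence was used. No paired analysis was possible because the list holds no values per library. Unknown depth, a single merged list and uncertain placement of reads in repeats limit every value.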

Other observations

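Members, like peaks outside the blocks, often shared both their fold and their −log10 p exactly with another peak of the list. This held for 34 of the 52 peaks of chromosome 16 (65.4%, Wilson 95% interval 51.8 to 76.8), 59 of the 174 of chromosome 1 (33.9%, 27.3 to 41.2) and 21 of the 73 of chromosome 9 (28.8%, 19.7 to 40.01). The share was 29.2% in the other gene-free intervals and 51.2% elsewhere. Chromosomes 1 and 9 thus lay below elsewhere and chromosome 16 above, so such ties were not particular to the members. The share over all peaks on the primary chromosomes was not computed.

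In part of the peaks the background equalled the scaled control coverage at the summit itself, rather than that of a wider window or the floor. This held for 56.9% of the peaks of chromosome 1, 63.0% of those of chromosome 9 and 44.2% of those of chromosome 16. It also held for 41.8% of the peaks of the other gene-free intervals and for 30.4% elsewhere.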
